A study of Mus musculus with 4 samples.

Results

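Cd209a-positive, class II-rich mononuclear cells were studied in mouse heart: monocyte-type and type-2 dendritic cells, hereafter Cd209a cells. They made up 302 of 40438 kept cell barcodes over 4 single-cell libraries, with 7 in the control uninjured library, 4 in the deletion-labelled uninjured library, 138 in the control infarction library and 153 in the deletion-labelled infarction library. A cell was chosen by its counts of unique molecular identifiers (UMIs, each standing for 1 captured transcript). It had at least 500 UMIs with at most 20% from mitochondrial genes, at least 20 UMIs per 10000 from the class II genes H2-Aa, H2-Ab1 and H2-Eb1 together, and at least 2 UMIs of Cd209a. Cd79a, a B cell gene, had to be at 0, Xcr1 and Clec9a together under 2 (type-1 dendritic cells), and Ccr7, Fscn1 and Ccl22 together under 5 (migratory dendritic cells). The comparison cells, macrophages and monocytes of the same library, had at least 1 Csf1r UMI and no Cd209a UMI, and numbered 996, 871, 4120 and 3767 in the same order of libraries.

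The series asked what the transcription factor TCF21 does in cardiac fibroblasts in vivo. Live nucleated cells, which the labels call interstitial, were sorted from hearts and sequenced from the 3' end with droplets. Every group received tamoxifen, and every group carried Tcf21-MerCreMer, a Cre recombinase that tamoxifen switches on and that is driven from the Tcf21 locus. The control groups were Tcf21-MerCreMer alone. The deletion-labelled groups also carried a floxed Tcf21 allele (Tcf21-MerCreMer:flox, MCM/fl). Each genotype was taken uninjured, called baseline in the labels, or 3 days after myocardial infarction. Each group is 1 library, and the number and age of the animals behind it are not given in the sources used here. There was therefore no replicate and no test of any difference between groups, and every interval below covers counting error only.

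Tcf21 is known as a gene of cardiac fibroblasts. After infarction MerCreMer gave no UMI in the 138 control or the 153 deletion-labelled Cd209a cells. That allows shares of cells with a UMI of up to about 2.17% and 1.96%. These approximate limits are 3 divided by the number of cells, and exact limits would be higher. Stromal barcodes of the same libraries had a MerCreMer UMI in only 2.02% and 2.02%, so these counts do not show where Cre is expressed. Tcf21 itself was not lower in the stromal barcodes of the deletion-labelled libraries (Dcn at least 3 UMIs, no Ptprc, Csf1r or Pecam1 UMI). Tcf21 had 93.0 UMIs per 1000000 UMIs (CPM) there in the control and 146 in the deletion-labelled uninjured library, and 23.0 against 35.3 after infarction. Which exons the floxed allele removes is not given in the sources used here, so this 3' count does not check the deletion, and the genotype is given below as the label of a library.

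Dendritic cells take up antigen in tissue and present it on MHC class II molecules to CD4 T cells. Type-1 dendritic cells specialise in cross-presentation to CD8 T cells, type-2 cells depend on IRF4 and express C-type lectins of the CD209 and CLEC10A families, and monocytes recruited through CCR2 can take on a similar programme in injured tissue. FLT3 is the growth factor receptor of the dendritic lineage, while CD64, encoded by Fcgr1, marks macrophages and cells derived from monocytes. The invariant chain CD74 escorts new class II molecules, CIITA switches their genes on, and the class II genes share a promoter module that includes a Y box, an inverted CCAAT element.

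Promoters of 4 genes are printed: Cd209a and H2-Eb1, which were part of the rule that chose the cells, and H2-DMb2 and H2-Oa, class II genes outside it. The 3 class II windows show letters of that shared element. Sequences are from RefSeq on GRCm38.p6, run from 250 bases before the start of the gene to 50 bases after it, and read 5' to 3' on the gene's strand. Capitals mark GATTGG or its reverse complement CCAATC, found by an exact search of both strands.

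Cd209a, chr8:3748935-3749234, minus strand: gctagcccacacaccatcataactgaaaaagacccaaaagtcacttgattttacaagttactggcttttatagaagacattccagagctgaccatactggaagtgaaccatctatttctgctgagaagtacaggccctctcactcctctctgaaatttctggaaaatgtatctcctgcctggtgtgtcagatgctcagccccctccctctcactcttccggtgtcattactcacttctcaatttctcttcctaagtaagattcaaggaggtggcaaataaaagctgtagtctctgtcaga

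H2-Eb1, chr17:34305617-34305916, plus strand: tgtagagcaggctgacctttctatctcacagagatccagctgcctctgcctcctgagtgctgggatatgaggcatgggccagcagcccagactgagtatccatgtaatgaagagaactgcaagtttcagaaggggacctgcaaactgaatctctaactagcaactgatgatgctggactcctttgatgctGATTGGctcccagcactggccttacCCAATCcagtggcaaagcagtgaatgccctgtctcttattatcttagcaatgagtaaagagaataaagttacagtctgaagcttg

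H2-DMb2, chr17:34144999-34145298, plus strand: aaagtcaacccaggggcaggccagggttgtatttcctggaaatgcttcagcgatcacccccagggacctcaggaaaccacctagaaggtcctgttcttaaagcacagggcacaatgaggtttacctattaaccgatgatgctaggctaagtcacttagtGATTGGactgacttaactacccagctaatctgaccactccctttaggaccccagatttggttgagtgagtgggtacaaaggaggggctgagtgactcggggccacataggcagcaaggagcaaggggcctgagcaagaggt

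H2-Oa, chr17:34092129-34092428, plus strand: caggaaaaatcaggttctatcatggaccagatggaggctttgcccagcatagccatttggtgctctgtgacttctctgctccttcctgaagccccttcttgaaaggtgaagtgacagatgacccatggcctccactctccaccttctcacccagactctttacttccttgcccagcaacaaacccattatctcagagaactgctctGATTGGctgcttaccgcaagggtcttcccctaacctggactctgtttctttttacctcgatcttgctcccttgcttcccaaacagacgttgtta

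GATTGG on either strand occurred in 5292 of the 32851 RefSeq promoters of this length (16.1%). Of 19 genes looked up, 14 had a RefSeq entry, and 9 of these held the motif. The H2-Eb1 window held 2 matches, the first starting 60 bases before the gene start. In H2-DMb2 the match started 91 bases before the gene start, and in H2-Oa 44 bases before it. The longer form CTGATTGG occurred in 1346 promoters (4.10%) and in 4 of the 14, namely H2-Aa, H2-Eb1, H2-Eb2 and H2-Oa. Tnip3, which is not a class II gene, was 1 of the 9, with 1 GATTGG match. H2-DMa had a match in only 1 of its 2 windows. No match lay in the windows of Cd209a, Flt3, Ffar2, Kmo or Dpp4. These are matches of letters only.

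Cd209a cells were a larger share of the kept barcodes in both infarction libraries than in both uninjured libraries. They were 0.0782% (exact 95% Clopper-Pearson interval 0.0315 to 0.161%) of the control uninjured library and 0.0358% (0.00975 to 0.0916%) of the deletion-labelled uninjured library. After infarction they were 1.39% (1.17 to 1.64%) of the control library and 1.48% (1.25 to 1.73%) of the deletion-labelled library. The infarction intervals lay above both uninjured intervals and overlapped each other. Among barcodes with a UMI of Ptprc, the leukocyte gene for CD45, the shares were 0.520% and 0.380% uninjured and 1.74% and 1.99% after infarction. Of Cd209a cells plus comparison cells they made up 0.698%, 0.457%, 3.24% and 3.90%. A share cannot tell more of these cells from fewer of the others, and cells were counted after a sort. Depth bears on a rule that needs 2 UMIs of 1 gene: when each barcode was thinned to 2000 UMIs, 3, 4, 46 and 67 cells met the rule, or 0.0364%, 0.0395%, 0.557% and 0.748%.

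**Figure D1:**
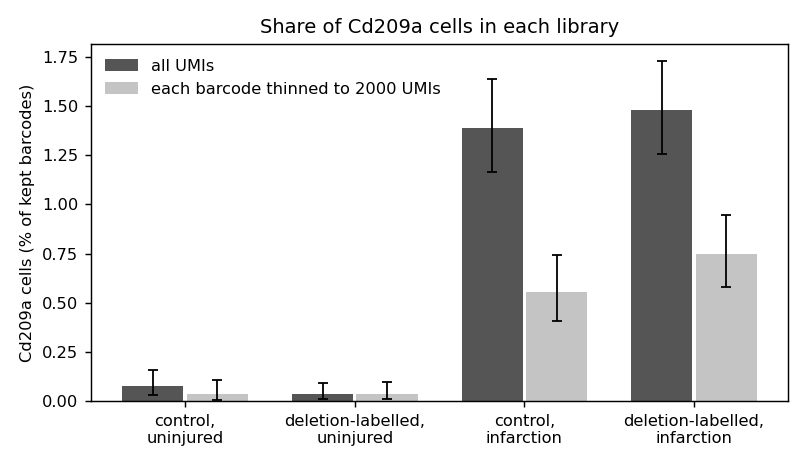
Share of Cd209a cells among kept barcodes (y axis, percent) in each of the 4 libraries, with all UMIs (dark bars) and with each barcode thinned to 2000 UMIs (light bars). Bars are 1 library each and whiskers are exact 95% binomial intervals for counting error. Both infarction libraries stand above both uninjured ones on either count, and the shares with all UMIs are 1.39% and 1.48% after infarction.

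The cells sat clear of the class II threshold and ran down to the Cd209a threshold. In the control infarction library 19 cells had 2 Cd209a UMIs, 22 had 3 and 97 had at least 4, while 43 cells that met all other criteria had 1 and 548 had none. In the deletion-labelled infarction library 14 cells had 2, 16 had 3 and 123 had at least 4, against 22 with 1 and 541 with none. No cell of either infarction library lay between 20 and 25 class II UMIs per 10000, and 3 and 1 lay between 15 and 20. The median was 225 and 227 class II UMIs per 10000 in Cd209a cells against 0.373 and 0.340 in comparison cells. Beyond the threshold, the cells with exactly 1 Cd209a UMI, which met the same class II minimum, carried the same RNA to a varying degree. Cd74 was 16905 and 16050 CPM in them, control first, against 21934 and 19866 in cells with 10 or more Cd209a UMIs. Gpr171 was 128 and 165 in them against 180 and 209. Clec10a differed more, at 187 and 104 against 413 and 387. Cd7 was at 56.9 and 140 against 94.4 and 127.

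The 291 Cd209a cells of the infarction libraries were of ordinary depth for these data. Their median was 11880 UMIs and 3034 genes in the control library and 13519 UMIs and 3201 genes in the deletion-labelled library. Comparison cells had medians of 15510 and 14744 UMIs, and stromal barcodes 30528 and 18216. A doublet score from simulated pairs was high in 21 of 138 and 23 of 153 Cd209a cells, against 13.3% and 14.7% of comparison cells. These cells were kept. In the test on simulated pairs, 43 of 60 pairs of a Cd209a cell with a comparison cell were recovered. Libraries shared 19 to 41 barcode sequences pairwise. No barcode was a Cd209a cell in more than 1 library.

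Of 5822 genes outside the rule with enough UMIs, 225 (3.86%) were at least 2-fold higher in Cd209a cells than in comparison cells in both infarction libraries. Another 400 (6.87%) were at least 2-fold lower in both. None was 2-fold higher in one library and 2-fold lower in the other. A gene entered with at least 20 CPM in 1 of the 2 classes and 30 UMIs over both, in each library. The median log2 ratio over all these genes was -0.11 in both libraries. Class II and Cd209a UMIs chose the cells, so the contrast is a description. With no minimum on CPM, 707 were higher and 1154 lower. Cd209a cells were also set against the 471 and 485 comparison cells with at least 20 class II UMIs per 10000, called class II-rich. This applied the rule's minimum but did not match the class II level, as Cd74 still had log2 ratios of 0.69 and 0.64. The rule's limits on Cd79a, Xcr1, Clec9a, Ccr7, Fscn1 and Ccl22 were not applied to these comparison cells. Against them 78 genes were higher and 58 lower of 5474, of which 72 and 56 were also among the 225 and 400.

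Genes of the class II pathway outside the rule were higher in Cd209a cells. Of 10 such genes with enough UMIs, 8 were at least 2-fold higher in both infarction libraries and none was lower, with median log2 ratios of 3.40 in the control and 3.20 in the deletion-labelled library. Against class II-rich comparison cells, 4 of 10 were, with medians of 0.93 and 0.87. Cd74, the invariant chain, was at 18359 CPM in Cd209a cells against 1715 in comparison cells of the control infarction library, and at 17807 against 1908 in the deletion-labelled one. Its log2 ratios were 3.42 (3.40 to 3.44) and 3.22 (3.21 to 3.24), or 0.69 and 0.64 against the class II-rich cells. Cd74 was found in all 138 and 153 Cd209a cells, and after thinning to 2000 UMIs still in 100% of them, while 5.51% and 4.87% of stromal barcodes also had a Cd74 UMI at that depth.

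H2-Oa, which encodes a chain of the DO molecule that restrains peptide exchange, stood at 98.9 against 3.02 CPM in the control infarction library and 123 against 2.73 in the deletion-labelled library. Its log2 ratios, 5.03 and 5.49, were the highest of the list, and 2.20 and 2.83 remained against class II-rich cells. H2-DMb2, a chain of the DM molecule that loads peptide, was at 117 against 6.71 and 134 against 5.80. Ciita, the class II transactivator, was at 114 against 7.71 and 148 against 10.4, with log2 ratios of 3.89 and 3.82. All 3 genes thus differed in the same direction in both libraries. At the other end of the list Ctss, the cathepsin that trims the invariant chain, was near parity at 1617 against 1582 and 1361 against 1253.

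Receptors known from natural killer cells were also higher. Of 4 killer-cell lectin-like receptors with enough UMIs, 3 were at least 2-fold higher in both libraries. Klrd1, which encodes CD94, was at 157 CPM in Cd209a cells and 3.42 in comparison cells of the control infarction library, and at 254 and 9.08 in the deletion-labelled one. The log2 ratios of Klrd1 were 5.53 (5.29 to 5.76) and 4.81 (4.65 to 4.97), and 2.90 and 2.19 against class II-rich cells. Klrb1b, an inhibitory receptor, was at 45.5 against 1.33 and 68.7 against 2.25. Klrk1, which encodes NKG2D, had log2 ratios of 4.72 and 3.63. Klra2, a Ly49-family receptor, was the exception, with log2 ratios of -1.95 and -0.96. The Ly49 and CD94 families hold close paralogues, so reads could be split among them.

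Beside these receptors, the 13 natural killer cell markers summed to 19.97 and 89.5 CPM in Cd209a cells, against 26.8 and 31.6 in comparison cells, and 8 and 5 of the 13 were at 0. Ncr1 and Nkg7 together reached 2 UMIs in 0 and 3 Cd209a cells. The 13 T cell markers summed to 10.2 and 115, with 10 and 0 of them at 0. Their part in the ratios was not tested. Klrd1 gave a UMI in 75 of 138 cells (54.3%, 45.7 to 62.8%) and 107 of 153 (69.9%, 62.0 to 77.1%). Thinned to 2000 UMIs, Klrd1 was found in 21.0% and 36.6% of Cd209a cells and in 0% of stromal barcodes (upper limits 0.533% and 0.326%). In the same thinned cells Gpr171, an orphan G protein-coupled receptor gene also known from T cells, was found in 21.0% and 31.4%, and in 0% of stromal barcodes. No gene of the natural killer or T cell marker lists had enough UMIs to enter the contrast.

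Gpr171 was at 141 CPM against 9.26 in comparison cells (control) and 182 against 10.7 (deletion-labelled), with log2 ratios of 3.93 and 4.08. Ffar2, the receptor for short-chain fatty acids, was at 79.0 against 1.74 and 74.0 against 1.76. P2ry10, a receptor for lysophospholipids, was at 66.9 against 4.003 and 74.3 against 3.49. Of 8 orphan and purinergic G protein-coupled receptors with enough UMIs, 4 were higher and 1 lower. The log2 ratios against class II-rich comparison cells were 1.32 and 1.69 for Gpr171, 2.77 and 2.87 for Ffar2 and 1.53 and 2.05 for P2ry10, and 2 of 8 were higher and none lower. P2ry10 was the highest of the list against all comparison cells and the proton sensor Gpr65 the lowest, at 25.1 against 64.4 and 22.4 against 63.3.

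Dendritic cell core genes were higher as a group. Of 19 with enough UMIs, 15 were at least 2-fold higher in both libraries and none lower, with medians of 2.35 and 2.11. Against class II-rich comparison cells 10 of 19 were. Flt3 was at 51.1 CPM against 2.39 in the control infarction library and 44.8 against 2.53 in the deletion-labelled one, with log2 ratios of 4.42 and 4.15, and 2.43 and 2.59 against class II-rich cells. Cd7, a surface glycoprotein of lymphocytes and some dendritic cells, was highest, at 108 against 3.01 and 116 against 1.89. Dpp4, the dipeptidase CD26, was at 82.2 against 3.80 and 86.5 against 3.77, and Kmo, an enzyme of tryptophan breakdown, at 63.2 against 2.57 and 66.8 against 2.73. Cd7 kept log2 ratios of 3.33 and 4.07 against class II-rich cells. Id2, a transcriptional regulator that dendritic cells share with many leukocytes, was lowest, with log2 ratios of -0.47 and -0.12.

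Type-2 genes were less uniform. Of 15 with enough UMIs, 7 were at least 2-fold higher and none lower, with medians of 1.22 and 0.87. Set against class II-rich comparison cells, 3 of 16 were higher and 1 lower, with medians of 0.23 and 0.41. Irf4, the transcription factor of type-2 cells, was at 33.9 CPM against 2.12 and 33.8 against 2.44. Clec10a and Mgl2, paralogous galactose-type lectins, were at 283 against 18.9 and 324 against 25.8, and at 303 against 27.7 and 400 against 29.0. Sirpa, an inhibitory receptor that macrophages share, was the lowest, with log2 ratios of -0.66 and -0.72. Over the whole C-type lectin list, 4 of 14 were higher and 2 lower, or 2 and 0 of 14 against class II-rich cells. The highest was Cd209d, a paralogue of the gene that chose the cells, at 26.0 against 0.419 and 111 against 0.708 CPM, and the lowest was Clec4d. Cd209 family members are similar in sequence and reads could be shared among them.

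Costimulatory and inhibitory genes were higher in small numbers. Tnfsf9, the 4-1BB ligand that costimulates T cells, was at 202 CPM against 32.7 and 197 against 19.6, the highest of 12 costimulatory and coinhibitory ligands, of which 3 were higher and none lower. The lowest was Vsir. Tnip3, a binding partner of the NF-kB inhibitor A20, was at 296 against 46.6 and 287 against 40.9, with log2 ratios of 2.67 (2.54 to 2.79) and 2.81 (2.69 to 2.93). Tnip3 led the 19 NF-kB feedback inhibitors, of which 3 were higher and none lower, while Irak3 was the lowest, at 18.1 against 26.2 and 15.9 against 27.7. Against class II-rich comparison cells Tnip3 had log2 ratios of 0.45 and 0.60, and no gene of either list was 2-fold higher. Thinned to 2000 UMIs, Tnip3 was found in 37.7% and 31.4% of Cd209a cells and in 0.290% and 0% of stromal barcodes.

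**Figure D2:**
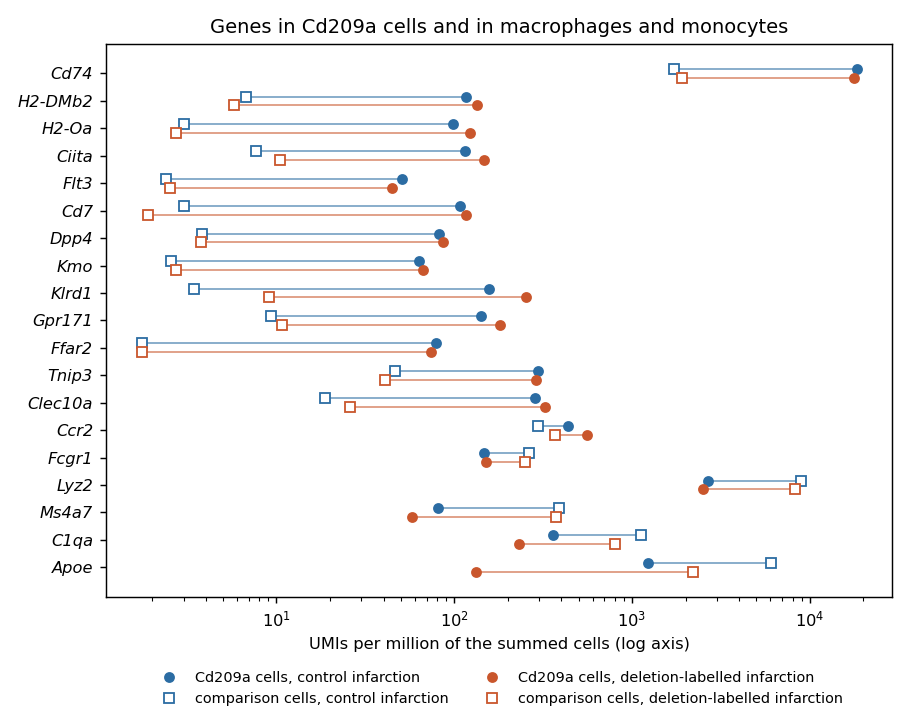
CPM (x axis, log scale) of 19 genes (rows) in Cd209a cells (filled circles) and comparison cells (open squares) of the control (blue) and deletion-labelled (orange) infarction libraries. Each symbol is the sum over the cells of 1 class in 1 library. Class II partners, dendritic cell genes and the receptors shown other than Fcgr1 lie to the right in Cd209a cells, while Fcgr1, Lyz2, Ms4a7, C1qa and Apoe lie to the left.

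Macrophage genes were lower. Of 29 with enough UMIs, 24 were at least 2-fold lower in both infarction libraries and none higher, with medians of -1.67 and -1.93. Against class II-rich comparison cells, 10 of 27 were lower and none higher. C1qa, a chain of complement C1q, was at 359 CPM against 1127 in the control library and 231 against 801 in the deletion-labelled library, and only 29 and 25 Cd209a cells had a UMI of it. In the deletion-labelled library 51.0% of the C1qa UMIs came from 1 cell. Fcrls was the lowest of the list, with log2 ratios of -3.30 and -2.98, and Axl the nearest to parity. Summed over the macrophage list, the median Cd209a cell had 22.0 and 20.7 UMIs per 10000 and the highest cell 538 and 429, while the median comparison cell had 265 and 188.

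Monocyte genes split. Of 19 classical monocyte genes, 2 were higher and 9 lower, with medians of -0.62 and -0.80. Most of these calls ended against class II-rich comparison cells, where 1 of 18 was higher and 1 lower, with medians of -0.17 and -0.22. Ms4a4c, a membrane protein gene of Ly6C monocytes, was highest at 270 CPM against 123 and 316 against 138, and Vcan, the proteoglycan versican, lowest at 61.8 against 221 and 60.7 against 302. Lyz2, lysozyme M, was at 2687 against 8914 and 2512 against 8243. Ccr2, the receptor through which monocytes leave the marrow, was at 436 against 298 and 558 against 371. Ccr2 was level with class II-rich comparison cells, with log2 ratios of -0.03 and 0.04. Fcgr1 was at 146 against 262 and 151 against 250, so both monocyte receptors were present. A Csf1r UMI, which the comparison cells were required to have, was found in 88 of 138 (63.8%) and 97 of 153 (63.4%) Cd209a cells.

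Among secreted signals, 12 of 17 chemokines were lower and 1 higher. With class II-rich comparison cells the split was 2 lower and 1 higher of 16. The higher one was Ccl17, a ligand of CCR4 on T cells, at 105 CPM against 6.38 and 42.1 against 1.20, but from only 15 and 13 cells. Ccl8, a monocyte chemoattractant, was lowest. Of 9 cytokines 3 were lower and none higher. Il1b, interleukin-1 beta, was the highest of them at 2079 against 869 and 1925 against 1218. Of 19 lysosomal proteases 5 were lower, and of 17 cholesterol and lipid genes 7 were lower. Against class II-rich cells these were 0 of 19 and 2 of 17. Of 18 interferon-stimulated genes none passed 2-fold either way in both libraries, with medians of 0.57 and 0.23.

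**Figure D3:**
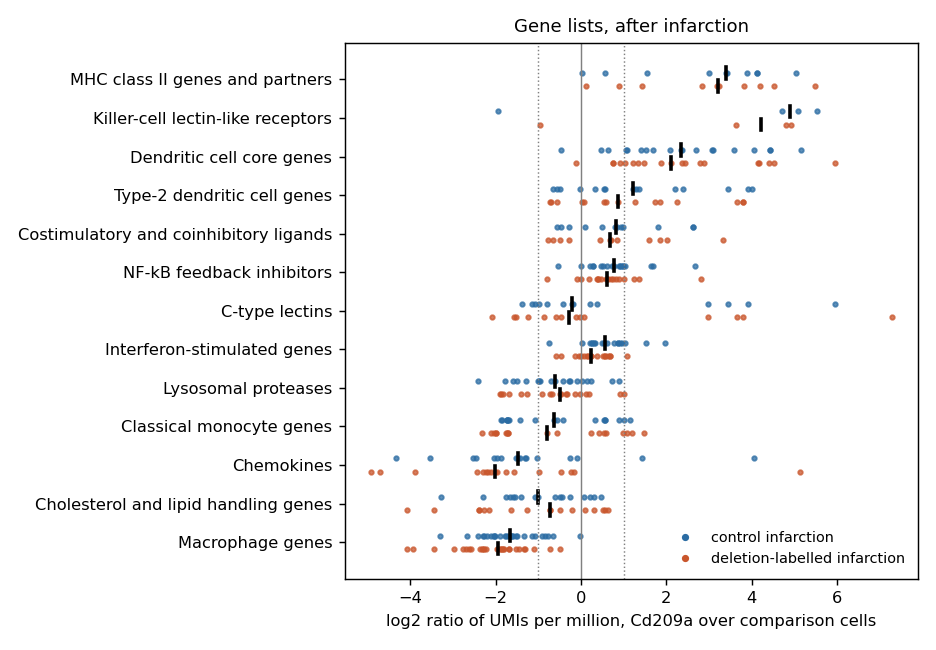
Log2 ratio of CPM, Cd209a over comparison cells (x axis), for each gene (dot) of 13 gene lists (rows) in the control (blue) and deletion-labelled (orange) infarction libraries. Black ticks are medians, and dotted lines mark 2-fold. Class II genes and partners have medians of 3.40 and 3.20 and macrophage genes of -1.67 and -1.93.

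Regulatory and sensing genes were divided. Of 31 transcription factors of myeloid cells 6 were higher and 4 lower (1 and 2 against class II-rich cells), from Irf4 at the top to Id3, an inhibitor of E proteins, at the bottom with 20.9 CPM against 108 and 15.9 against 95.3. Of 14 chemoattractant receptors 1 was higher (Gpr183, the oxysterol receptor EBI2) and 5 lower, with C3ar1, the receptor for complement C3a, lowest. That gene was also the lowest of 11 Fc and complement receptors, of which 3 were lower and Itgax, the integrin CD11c of dendritic cells, alone was higher. Pattern recognition receptors gave 1 higher and 2 lower of 12, actin and motility genes 1 and 1 of 23, glycolysis and hypoxia genes 0 and 2 of 23, and immediate-early genes, which tissue dissociation can induce, 1 and 0 of 24. No gene of 13 in the S-phase list or 12 in the G2 and M-phase list passed 2-fold in both libraries.

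Lists for other cell types were mostly lower or too low to enter. Neutrophil markers were lower in 7 of 10 cases and fibroblast markers in 8 of 9, with none higher. None of 8 neutrophil markers was lower against class II-rich comparison cells and 1 was higher: Retnlg, a resistin-like gene, had log2 ratios of 1.37 and 1.45 there but was lower against all comparison cells. Of 6 fibroblast markers 2 were then lower. Type-1 genes outside the rule gave 2 higher and 2 lower of 9, migratory genes 3 and 2 of 9, nonclassical monocyte genes 1 and 1 of 6, and B cell markers 1 and 2 of 3. None of 3 plasmacytoid genes passed. The single endothelial gene that entered (Fabp4, which macrophages also express) and the single basophil and mast cell gene (Hdc) were lower, and no cardiomyocyte or erythroid marker entered.

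The 12 lowest genes among those with at least 50 CPM were mostly matrix and stromal genes. They included Mgp, Dcn, Ccn2, Lox, Cxcl1, Col5a1, Fbn1, Sparc, Ccdc80, Fstl1 and Mfap5. Mgp, a matrix inhibitor of calcification, was at 17.2 CPM against 517 and 14.0 against 475. Fibroblast RNA, the summed UMIs of Col1a1, Col1a2, Col3a1, Dcn and Sparc, was over 5 UMIs in 1.45% and 3.92% of Cd209a cells. It was so in 8.76% and 13.8% of comparison cells. With such barcodes and those rich in neutrophil RNA left out of both classes, the control library's log2 ratio of Dcn was 0.06, of Ccn2 0.43 and of Fstl1 0.65. Dcn and Sparc are part of that filter, so a smaller difference in them is in part set by it. In the deletion-labelled library Dcn was then at -0.30 and Ccn2 at -0.28. Cxcl1, a neutrophil chemoattractant, stayed at -2.94 and -4.26. The part of fibroblast and of neutrophil RNA in these values was not tested apart.

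Within the Cd209a cells, most had no UMI of either Flt3 or Fcgr1 at equal depth. Whether cells with both were fewer than the detection of each gene would give was not tested. After thinning to 2000 UMIs, 17 of 138 cells of the control infarction library had Flt3 only (12.3%), 26 had Fcgr1 only (18.8%), 1 had both and 94 had neither. In the deletion-labelled library 14 of 153 had Flt3 only (9.15%), 24 Fcgr1 only (15.7%), 1 both and 114 neither. With all UMIs, cells with both numbered 32 and 37, so these are ranges of UMI counts in deep and shallow cells, not cell types. The sums below use all UMIs of the cells set apart at the thinned depth. They are a description, since measured genes made the split.

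Cells with Flt3 only had higher levels of some dendritic cell genes than those with Fcgr1 only. Klrd1 was at 404 CPM (exact Poisson interval 326 to 495) against 110 (82.3 to 144) in the control infarction library, and at 557 (446 to 687) against 158 (125 to 197) in the deletion-labelled one. Dpp4 was at 156 against 47.7 and 243 against 43.1, and Cd7 at 169 against 29.0 and 231 against 94.3. The Klrd1 intervals did not overlap in either library, but they cover counting error only and leave out the spread between cells. Of 15 dendritic cell core genes, 6 and 8 were at least 2-fold higher, with median log2 ratios of 0.75 and 1.04. Of the class II genes outside the rule, 2 of 10 and 2 of 9 were, with medians of 0.51 and 0.70. Over all 3009 and 3166 genes with enough UMIs, 83 and 149 were at least 2-fold higher and 202 and 410 at least 2-fold lower.

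Summed over cells, those with Fcgr1 only carried more monocyte, macrophage and interferon-stimulated RNA. Lyz2 was at 4527 CPM against 1369 in Flt3-only cells of the control infarction library, and at 4026 against 288 in the deletion-labelled one. Of 17 classical monocyte genes, 7 and 10 were at least 2-fold lower in Flt3-only cells, and of the macrophage genes 9 of 23 and 20 of 21. Interferon-stimulated genes were lower in Flt3-only cells in 13 of 16 and 16 of 18 cases, with medians of -2.48 and -2.16. Isg15, a ubiquitin-like protein induced by interferon, was at 561 against 65.2 and 355 against 70.4. Ifit3, an antiviral effector, had 84 and 77 UMIs in Fcgr1-only cells and 0 in the Flt3-only cells of both libraries.

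Markers of other cells moved with this split in the deletion-labelled library. Plasmacytoid genes summed to 1671 CPM in Flt3-only and 459 in Fcgr1-only cells there, with 3 of 4 at least 2-fold higher, against 474 and 570 in the control library. T cell markers summed to 19.2 and 203 and natural killer cell markers to 25.6 and 314 in the deletion-labelled library, against 4.35 and 0 and 39.1 and 35.2 in the control one. Their part in the split was not tested.

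A few cells held much of that interferon signal. The summed interferon-stimulated genes had medians per 10000 UMIs of 20.5 in Fcgr1-only and 12.4 in Flt3-only cells of the control library, and of 22.2 and 17.5 in the deletion-labelled one. The upper quartile of Fcgr1-only cells reached 72.8 and 46.2, and the highest cell 261 and 231. The difference between medians was therefore smaller than that between sums. Fcgr1 is itself known to respond to interferon. Whether the 2 move together within single cells was not tested.

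**Figure D4:**
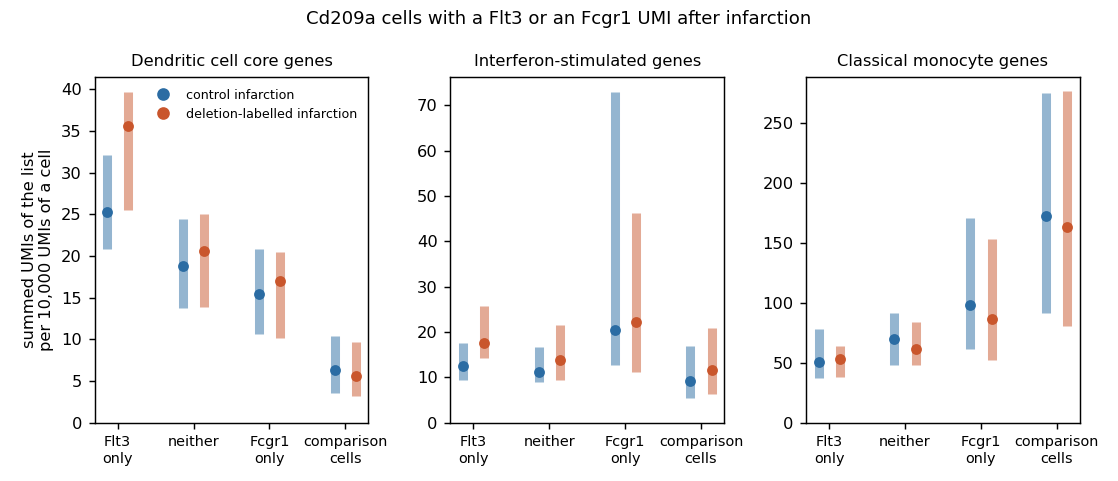
Summed UMIs of 3 gene lists per 10000 UMIs of a cell (y axes) in Cd209a cells with Flt3 only, neither or Fcgr1 only after thinning, and in comparison cells, of the control (blue) and deletion-labelled (orange) infarction libraries. Dots are medians over cells and bars run from the lower to the upper quartile. Dendritic cell core medians are highest in Flt3-only cells of both libraries, while the interferon list has its widest spread in Fcgr1-only cells, with upper quartiles of 72.8 and 46.2.

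The Cd209a cells differed from other dendritic cells of the same libraries along the lines of the lists. Those other classes met the same barcode filter and class II minimum and had no Cd209a or Cd79a UMI. Type-1 cells had Xcr1 and Clec9a together at least 2, and Ccr7, Fscn1 and Ccl22 together under 5. Migratory cells had Ccr7, Fscn1 and Ccl22 together at least 5. Marker genes thus set the classes apart, so these contrasts are a description. Against the 43 and 42 type-1 dendritic cells of the infarction libraries, 265 of 2894 genes passed 2-fold upward and 128 downward in both. Of 14 type-1 genes outside the rule, 13 were lower and none higher, among them Itgae, the integrin CD103, at 2.32 CPM against 230 and 2.66 against 214. Of 13 type-2 genes 11 were higher and 1 lower. Mgl2 was at 303 and 400 with no UMI in type-1 cells, and Ifi205, an interferon-inducible gene, was the lower one. Of 16 classical monocyte genes 10 were higher and none lower, with S100a4, a calcium-binding protein, at 2866 against 187 in the control library. Of 22 macrophage genes 19 were higher and none lower. Of 17 dendritic cell core genes 2 were higher and 6 lower, and of 11 NF-kB feedback inhibitors 7 were higher and none lower. So, in sums over cells, most counted macrophage genes were lower in Cd209a cells than in comparison cells and higher than in type-1 cells. Against migratory dendritic cells, 0 of 23 macrophage genes were higher and 2 lower.

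Set beside both other dendritic classes after infarction, the markers that came with the cells did not all peak in them. Klrd1 did: it was at 157 and 254 CPM in Cd209a cells, 38.7 and 21.5 in type-1 cells and 62.7 and 67.4 in migratory cells. Gpr171 was higher in type-1 cells, at 242 (209 to 279) and 262 (229 to 298), than in Cd209a cells, at 141 (125 to 158) and 182 (166 to 199), and lowest in migratory cells, at 28.3 and 38.8. The 2 sets of Gpr171 intervals did not overlap, though they too leave out the spread between cells. Tnip3 was at 296 and 287 in Cd209a cells, 16.2 and 28.3 in type-1 cells and 165 and 221 in migratory cells. Cd74 was about level with type-1 cells, at 18359 and 17807 against 18873 and 19278, and above migratory cells, at 11128 and 13153. Flt3 was at 51.1 and 44.8 in Cd209a cells against 127 and 154 in type-1 cells.

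Against the 45 and 28 migratory dendritic cells, 148 of 3034 genes were higher and 179 lower. Of 16 migratory genes outside the rule, 13 were lower and none higher. Cacnb3, a calcium channel subunit known in mature dendritic cells, had no UMI in Cd209a cells against 146 CPM in the control library, and 1.14 against 116 in the deletion-labelled one. Of 16 classical monocyte genes 8 were higher and none lower. Of 9 fibroblast genes 8 were lower, so stromal RNA also differed between these classes.

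The 11 uninjured Cd209a cells allow only levels with wide counting intervals. Cd74 was at 27088 CPM in the 7 control cells and 24544 in the 4 deletion-labelled cells, above the 7981 and 6907 of uninjured comparison cells. Mgl2 was at 1315 and 1246, found in 6 of 7 and 4 of 4 cells, against 303 and 400 after infarction. In the deletion-labelled cells 39 of the 60 Mgl2 UMIs lay in 1 cell. Klrd1 rested on 6 and 15 UMIs, Tnip3 on 15 and 5, Flt3 on 3 and 13 (11 of them in 1 cell), and Gpr171 on 2 and 0. Il1b had 3 UMIs in the control and 64 in the deletion-labelled cells, or 34.3 and 1329 CPM, against 2079 and 1925 after infarction. Of the 64 UMIs, 57 lay in 1 cell and 2 of the 4 cells had none. The 2 uninjured libraries also parted on macrophage genes: C1qa had 151 UMIs over 4 control cells and 1 UMI in the deletion-labelled cells, and Apoe, apolipoprotein E, 613 and 9. In the control cells 67 of the C1qa and 271 of the Apoe UMIs lay in 1 cell. Each of these values is a sum over 7 or 4 cells.

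Between the infarction libraries, the Cd209a cells of the deletion-labelled library had 335 of 5639 genes (5.94%) at least 1.5-fold higher and 137 (2.43%) at least 1.5-fold lower than those of the control library. The median log2 ratio over all genes was 0.05. Counting intervals excluded 0 for 318 and 133 of them, which says nothing of the spread between cells or between animals. In comparison cells 152 were higher and 21 lower of 5937. Of the higher genes 43 were shared (of 335 and of 152), and of the lower 14 (of 137 and of 21). With no minimum on CPM the counts were 847 and 303. Over 9 other settings, 123 of the 335 and 55 of the 137 met the size rule every time.

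The defining genes of the Cd209a cells outside the rule differed little or moderately between the 2 libraries, except Klrd1. Cd209a itself, which chose the cells, had 1147 UMIs in the control and 2030 in the deletion-labelled Cd209a cells, with medians of 5 and 9 per cell. Cd74 differed by -0.04 on the log2 scale (-0.06 to -0.02), Tnip3 by -0.04 (-0.20 to 0.11), Flt3 by -0.19 (-0.58 to 0.20) and Gpr171 by 0.37 (0.16 to 0.58), deletion-labelled over control. Of the 10 class II genes none passed 1.5-fold in either direction, and their median was 0.00. Klrd1 was higher by 0.69 (0.50 to 0.88), past 1.5-fold, and by 1.41 in comparison cells. Cd209d was higher by 2.10 (1.68 to 2.53), with 56 UMIs over 22 cells against 293 over 54 cells.

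Plasmacytoid dendritic cell genes were the group with the largest median difference, 4.21, and all 8 of the 11 with enough UMIs were higher. The list's median in comparison cells was 0.33. Siglech, a plasmacytoid lectin, had 16 UMIs in the control and 319 in the deletion-labelled library, Ly6d, a lymphoid surface protein, 0 and 296, and Cox6a2, a cytochrome oxidase subunit, 0 and 277. These 3 genes passed the minimum of UMIs only through the deletion-labelled library, so the filter itself favoured higher values there. Their UMIs came from few barcodes. At least 10 UMIs of the 3 genes together were found in 13 of 153 Cd209a cells and in 0 of 138, and the 13 held 97.8% of Siglech, 99.6% of Cox6a2 and 99.3% of Ly6d UMIs. They held 30.4% of the Cd209d, 7.46% of the Klrd1, 12.7% of the Flt3 and 5.71% of the Cd209a UMIs of that library's Cd209a cells. Among comparison cells 9 of 4120 (0.218%) and 14 of 3767 (0.372%) reached 10 UMIs. With the 13 left out, a setting added after seeing the values, the list's median was -0.00. That median is over the genes that still had enough UMIs, which Siglech, Ly6d and Cox6a2 did not. Siglech was at -1.33, but the 13 were picked by their Siglech, Cox6a2 and Ly6d UMIs. Irf8, a transcription factor of type-1 and plasmacytoid cells, went from 1.66 to -0.52. Klrd1 was then at 0.74 and Cd209d at 1.73, and 283 genes were higher and 167 lower.

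Genes of the cell cycle had higher levels in deletion-labelled Cd209a cells. Of 16 G2 and M-phase genes, 14 were at least 1.5-fold higher, with a median of 1.13 against -0.05 in comparison cells. Of 15 S-phase genes 7 were, with a median of 0.46 against -0.10. Mki67, the proliferation antigen Ki-67, was at 50.2 and 131 CPM, and Top2a, topoisomerase II alpha, at 46.4 and 135. At least 2 UMIs of these 2 genes were found in 15 of 138 and 29 of 153 Cd209a cells, and in 12.9% and 10.9% of comparison cells. The Cd209a cells had median depths of 11880 and 13519 UMIs. Without the 13 plasmacytoid-RNA cells the G2 and M-phase median was 1.16, and without cells of high doublet score 0.90.

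RNA of other cell types also differed between the Cd209a cells of these libraries. At least 2 UMIs of the T cell genes Cd3e, Cd3d and Trac were found in 0 and 7 cells, and at least 20 of the neutrophil genes S100a8 and S100a9 in 10 and 3. Of 7 fibroblast markers 5 were higher, with a median of 1.89. Without cells of high doublet score the median, over the genes that then had enough UMIs, was -0.063. Of 3 erythroid markers all were higher, with a median of 4.10 and of 7.15 in comparison cells. The 6 erythroid markers measured had 1 UMI in the control and 298 in the deletion-labelled Cd209a cells. Those that entered did so only through the latter. The part of such RNA in the other genotype values was not tested.

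Macrophage and interferon-stimulated genes were lower in part. Among 26 macrophage genes 1 was higher against 7 lower, and the list's median was -0.38 against -0.08 in comparison cells. Apoe was lowest, with 2636 UMIs over 97 cells in the control and 348 over 45 cells in the deletion-labelled library, a log2 ratio of -3.21 (-3.38 to -3.05) beside -1.45 in comparison cells. Hmox1, heme oxygenase 1, had 1460 and 430 UMIs, of which 46.0% of the control count lay in 1 cell, and its ratio was -1.51 without the cell with the most UMIs in each library. Lpl, lipoprotein lipase, had 135 and 49 UMIs. Among 20 interferon-stimulated genes 2 were higher against 5 lower, and the list's median was -0.16 against 0.21 in comparison cells. Cxcl10, an interferon-induced chemokine, had 205 UMIs in 18 cells and 79 in 16 cells.

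Several of the most different genes rested on 1 cell or differed as much in comparison cells. Of Hbb-bs UMIs in the deletion-labelled library 84.1% came from 1 cell, of Prg4 81.8%, of Saa3 89.8% and of Slpi 54.9%, and of eGFP in the control library 69.1%. Saa3, an acute-phase protein, had a log2 ratio of 2.94, which was 1.02 without the top cell and -1.61 without cells of high doublet score. Alox15 had 0 and 150 UMIs, the latter from 3 cells. Gm10260 had 136 and 2 UMIs and was lower in comparison cells too, by 7.78 on the log2 scale, and BC004004, with 321 and 141 UMIs, was at -1.31 there. Tpm3-rs7 had 114 and 51 UMIs. Among genes picked after their values were seen, Ifi202b had 0 and 114 UMIs with a comparison-cell log2 ratio of 10.75, and Mgst2, a glutathione transferase, had 94 and 8 with -4.39. Hence the list of extreme genes held genes with as large a difference in macrophages and monocytes of the same libraries, whose cause was not tested.

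**Figure D5:**
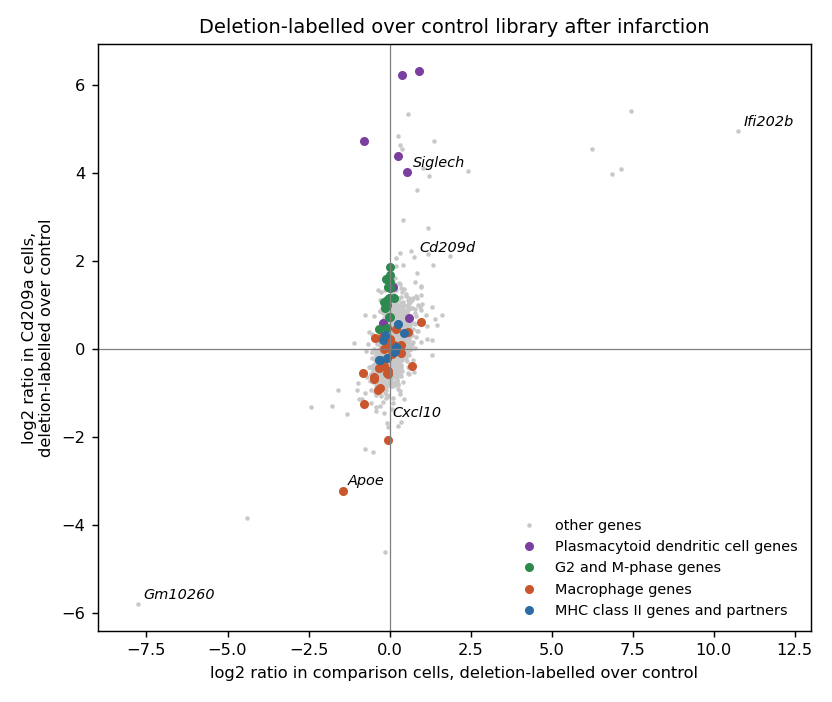
Log2 ratio of deletion-labelled over control infarction library in Cd209a cells (y axis) and in comparison cells (x axis). Each point is 1 gene, with 1 library per genotype, and 4 gene lists are coloured. Plasmacytoid and G2 and M-phase genes lie above 0 in Cd209a cells with values near 0 in comparison cells (list medians 4.21 and 1.13 against 0.33 and -0.05), while class II genes lie at the centre.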

How the data were processed

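The data are 4 single-cell RNA libraries of cells sorted from mouse hearts, 1 library per group. The tables deposited by the authors hold whole-number counts of UMIs for each gene in each barcode, not normalized. Cell Ranger 5.0.1 and the mm10 build are named in the submitters' processing notes. The tables list 32287 features, 2 of them added sequences (eGFP and MerCreMer). The libraries hold 9149 to 11541 barcodes. Barcodes with at least 500 UMIs and at most 20% mitochondrial UMIs were kept, 8946 to 11175 per library.

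Cells were chosen by thresholds on raw UMIs, with no clustering. The members and the gene lists were chosen with earlier results of these data known. UMIs were summed per library and class, scaled to counts per 1000000 UMIs (CPM), and set against each other as log2 ratios with exact 95% Clopper-Pearson intervals given the summed counts. Any sum under 3 UMIs was raised to a floor of 3 UMIs in ratios. Genes of the rule, mitochondrial genes and the 38 features with duplicated symbols stayed out. Named genes were the markers, the 12 highest and 12 lowest against comparison cells and the 8 highest and 8 lowest by genotype (at least 50 CPM), and members of 37 gene lists with each list's highest and lowest. Genes named outside this rule are so marked. A few genes that met the rule are not reported here. For shares, each cell was also thinned to 2000 UMIs. Doublets were scored from simulated pairs and kept. In that check 43 of 60 simulated pairs of a Cd209a and a comparison cell were recovered, and 40 of 60 of a Cd209a cell and a stromal barcode. Ratio intervals were tested on simulated data. Other settings left out doublet-scored barcodes, changed the thresholds, scaling and comparison cells, or dropped the minimum level. With 1 library per group no test was made. Precision is limited by counting error, by the spread between cells, which the intervals leave out, and by the unmeasured spread between animals. Python 3.11.15 with numpy 2.4.6, scipy 1.17.1, pandas 2.3.3 and scikit-learn 1.9.0 was used.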

Additional observations from a re-analysis of the deposited data

How the results depend on the processing

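No paired analysis was possible because a group holds no more than 1 library. Sums of few cells limit most genotype values, and for uninjured hearts rest on 7 and 4 cells. Of 44 counts of genes under other settings, 38 were within 1.5 times the reported count. With no minimum on CPM, which tests more genes, the Cd209a cells had 707 genes higher and 1154 lower than comparison cells, and 847 higher and 303 lower by genotype. Against comparison cells with at least 20 class II UMIs per 10000 the counts were 78 and 58. With Cd209a at 1 UMI or more the share in the control infarction library was 1.82%. With each barcode thinned to 2000 UMIs before the rule it was 0.557%, and 0.748% in the deletion-labelled one, and the share of Cd209a cells with Flt3 and no Fcgr1 in the control infarction library was 4.35%.

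Of 624 log2 ratios of named genes against comparison cells under other settings, 621 kept their sign and 428 stayed within the counting interval of the reported value; by genotype 194 of 197 and 153 did. Against class II-rich comparison cells all 52 moved out of it. Of list medians, 750 of 788 against comparison cells and 306 of 336 by genotype kept their sign, and 548 and 316 stayed within the median interval of their genes. Each median was taken over the genes of the list that passed the filter in that setting, so the genes can differ between settings. Sign changes of values past the size rule were as follows, and their cause was not tested. The other medians that changed sign were reported under that size. Without barcodes of high doublet score, Saa3 by genotype was -1.61 and the fibroblast list -0.063. With no minimum on CPM, the basophil and mast cell list was at 0.98 (control) and 0.29 (deletion-labelled) and the B cell list at 0.28 (deletion-labelled). Against class II-rich comparison cells the neutrophil list was at 0.70 (control). Against comparison cells with at least 2 Csf1r UMIs the B cell list was at 1.61 and 2.02. Without barcodes holding fibroblast or neutrophil RNA, a setting chosen after seeing the data, Dcn was at 0.055, Ccn2 at 0.43 and Fstl1 at 0.65 (control). The fibroblast list was then at 0.32 and 0.27, and by genotype at -0.12. Dcn is itself part of that filter. Without the Cd209a cells holding plasmacytoid RNA, also chosen after seeing the data, Siglech was at -1.33, Irf8 at -0.52 and the plasmacytoid list at -0.0017. Siglech is 1 of the genes that picked those cells.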
